A study of Mus musculus with 2 samples.

Results

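The MHC class I presentation genes described here are 9 listed symbols among the 32285 genes of the count tables, B2m, H2-K1, H2-D1, Tap1, Tap2, Tapbp, Psmb8, Psmb9 and Nlrc5, and their unique molecular identifiers (UMIs) were summed over the cells of each cell class in each library. The samples were 2 single-cell RNA libraries from mouse lung at P14, each from 1 mouse of the genotype Gli1creERT/+ with both Hhip alleles floxed. The control mouse received oil and the other tamoxifen, daily for 3 days from birth, so that the second library, named HHIPCKO, carries a deletion of Hhip, an inhibitor of hedgehog ligands, in the Gli1-expressing stromal cells and their descendants. Cre expression from Gli1 is a stromal feature in the lung, and the epithelial cells of the HHIPCKO mouse were not its target. Sorted stromal cells (CD45-, CD31-, CD326-) were mixed with fewer sorted epithelial cells (CD326+) before capture. Leukocytes and endothelial cells were thus gated out, and the B-like, endothelial-like and red cell-like cells below are what passed the gate.

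MHC class I molecules show peptides from a cell's own proteins to CD8 T cells and are read by natural killer cells. Immunoproteasome subunits cut proteins to fitting peptides, the TAP transporter carries these into the endoplasmic reticulum, tapasin holds the transporter to empty class I molecules, and a heavy chain paired with beta-2-microglobulin takes the loaded peptide to the cell surface. Interferons raise the whole set, and NLRC5 is the dedicated transactivator of class I promoters. In the lung, alveolar epithelial type 2 (AT2) cells carry class I as nearly all nucleated cells do and also carry class II.

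The control library held 43291709 UMIs in 10999 cells and the HHIPCKO library 52338969 in 12350, with medians of 3531 and 3720 UMIs per cell. The libraries shared 193 cell barcodes. After filtering, 9551 control and 10064 HHIPCKO cells (87.5% and 83.1% of those kept) fell in 13 classes named from marker lists, each with 50 or more cells per library. Names are written with "-like" because the clusters were rebuilt here. ALMF and DMF stand for alveolar and ductal myofibroblasts. Hhip in DMF-like cells was at 2468 UMIs per 1000000 in the control and 439.6 in the HHIPCKO library, lower in the library labelled HHIPCKO. Xist was found in 0.109% of control and 55.7% of HHIPCKO barcodes, so that sex and deletion cannot be told apart. Each condition has a single library, so values carry no replicate error and were not tested. Intervals below are exact 95% Poisson intervals on a level or exact 95% binomial intervals on a ratio, and cover counting error only.

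The genes lie on 3 chromosomes of GRCm38 (mm10), by the GENCODE annotation. B2m is on chromosome 2 (chr2:122147686-122153083, plus strand) and Nlrc5 on chromosome 8 (chr8:94434356-94527272, plus strand). The other 7 lie in the major histocompatibility complex on chromosome 17. Tapbp (chr17:33915899-33929292, plus strand) and H2-K1 (chr17:33996017-34000347, minus strand) come first. They are followed by Psmb9 (chr17:34181987-34187764, minus strand), Tap1 (chr17:34187553-34197225, plus strand), Psmb8 (chr17:34197721-34201454, plus strand) and Tap2 (chr17:34203527-34216321, plus strand). H2-D1 (chr17:35262730-35267499, plus strand) lies apart from them. The Psmb9 and Tap1 gene models point away from each other and overlap over 212 bases on opposite strands, and their RefSeq start sites stand 225 bases apart.

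RefSeq promoter entries of GRCm38.p6 were found for 7 of the 9 genes. There was none for Tap2 and Nlrc5. The stretches before the start sites of H2-K1 and B2m are shown because they hold motifs that class I promoters are known for: an NF-kB site, an X2 or cyclic AMP response element core, a Y box and, in B2m, an interferon-response core. Capitals mark GGGGATTCC (NF-kB), TGACG (X2 or CRE), CCAAT or its reverse complement ATTGG (Y box) and GAAANNGAA (interferon response). The motifs were chosen after the promoters had been seen, both strands were searched in the 250 bases before each start site, and a match is a description of letters only. Other spellings of these elements were not searched, so a promoter without a match, such as H2-K1 for GAAANNGAA, may still hold one.
H2-K1, chr17:34000348-34000497, minus strand: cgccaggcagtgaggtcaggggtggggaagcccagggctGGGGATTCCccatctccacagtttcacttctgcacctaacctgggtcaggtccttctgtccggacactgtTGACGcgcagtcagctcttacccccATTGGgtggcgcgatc
B2m, chr2:122147537-122147685, plus strand: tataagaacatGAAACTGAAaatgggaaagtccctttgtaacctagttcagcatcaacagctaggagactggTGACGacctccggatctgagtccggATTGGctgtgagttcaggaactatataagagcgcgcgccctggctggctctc

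The NF-kB letters were found in 0.213% of all 32851 RefSeq promoter entries and, among the 9 genes, in H2-K1 and H2-D1. TGACG was in 17.8% of entries and in B2m, H2-K1, H2-D1, Tap1 and, on the minus strand, Psmb9, where it is the same site as in Tap1. The interferon core GAAANNGAA was in 7.13% of entries and in B2m, the Y box in 33.9%, and TTCNNNGAA, the letters of a gamma-activated site, in 7.02% of entries and in Psmb8. From the NF-kB site to the Y box, H2-K1 and H2-D1 matched at 89 of 100 bases without a gap. The sites of both genes are shown for that likeness, and the TGACG sites of B2m and Tap1 beside them. Both H2-D1 sites lie before its RefSeq start site at 35263094. They lie inside its GENCODE gene model, which starts at 35262730, so the annotations differ on where the gene begins.
H2-K1 NF-kB site, chr17:34000440-34000468: gcccagggctGGGGATTCCccatctccac
H2-D1 NF-kB site, chr17:35262913-35262941: gcccagggctGGGGATTCCccatctcctc
H2-K1 TGACG site, chr17:34000372-34000400: tccggacactgtTGACGcgcagtcagctc
H2-D1 TGACG site, chr17:35262981-35263009: ccgggacactgaTGACGcgctggcaggtc
B2m TGACG site, chr2:122147597-122147625: ctaggagactggTGACGacctccggatct
Tap1 TGACG site, chr17:34187458-34187486: cccagagacaggTGACGacagagggtcct

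H2-K1 and H2-D1 are close copies of each other, so reads could in principle be split between them or the H2-Q, H2-T and H2-M genes. In the GENCODE transcripts, 2 of 1530 90-base windows of the longest H2-K1 transcript occurred letter for letter in H2-D1, and 106 of 2013 windows of H2-D1 occurred in another class I gene. These counts cover exact matches between reference transcripts only, so they do not bound the uncertainty in the levels of both genes. Which end of a transcript was read is unsettled, and differences of the 2 mice from the reference in these genes were not examined.

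Levels were compared within each gene across the 13 classes, in UMIs per 1000000 UMIs of the class (CPM). The heavy chains H2-K1 and H2-D1, which hold the peptide, had the same 4 classes at the top in both libraries: B-like, mesothelial-like and endothelial-like cells, followed by AT2-like cells. H2-K1 was at 583 (interval 537 to 632) in control B-like cells and 762 (687 to 844) in HHIPCKO B-like cells. It was at 389 in the control and 416 in the HHIPCKO library in mesothelial-like cells, at 379.9 in the control and 361 in the HHIPCKO library in endothelial-like cells and at 242 in the control and 247 in the HHIPCKO library in AT2-like cells. The B-like level stood apart from the mesothelial-like level, the endothelial-like from the AT2-like, and the AT2-like from the vascular smooth muscle-like in both libraries. No other neighbours in the control order of H2-K1 had separate intervals in both libraries. The myofibroblast-like, adventitial, mural and ciliated-like classes ran together between 111 and 145 in the control and between 143 and 168 in the HHIPCKO library. Alveolar fibroblast-like cells were lower, at 87.5 in the control and 79.0 in the HHIPCKO library, as were peribronchial fibroblast-like cells at 45.8 in the control and 84.3 in the HHIPCKO library.

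H2-D1 was at 627 in the control and 809.9 in the HHIPCKO library in B-like cells, at 624 in the control and 642 in the HHIPCKO library in endothelial-like cells, at 422 in the control and 579 in the HHIPCKO library in mesothelial-like cells and at 299.9 in the control and 353 in the HHIPCKO library in AT2-like cells. Mesothelial-like and AT2-like cells, and AT2-like and adventitial fibroblast-like cells, had separate intervals in both libraries. The remaining classes ran from 65.2 in peribronchial fibroblast-like to 164 in adventitial fibroblast-like cells in the control, and from 113 in peribronchial fibroblast-like to 237 in pericyte-like cells in the HHIPCKO library. Red cell-like cells were at 76.9 and 108, with intervals that overlap those of peribronchial fibroblast-like cells in both libraries.

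B2m, the invariant light chain that every class I heavy chain needs, had another order. B-like cells were again highest, at 381 in the control and 459 in the HHIPCKO library, and stood apart from the endothelial-like cells that followed at 244 in the control and 308 in the HHIPCKO library. The 7 stromal fibroblast and mural classes ran from 124 in pericyte-like to 196 in adventitial fibroblast-like cells in the control, and from 154 in peribronchial fibroblast-like to 209 in adventitial fibroblast-like cells in the HHIPCKO library. AT2-like cells were lower than each of these, with intervals apart from the next class in both libraries, at 48.0 (interval 44.6 to 51.6) in the control and 66.0 (62.2 to 70.0) in the HHIPCKO library. Sftpc alone took 30.8% and 27.3% of the UMIs of AT2-like cells, which enter the total of this scale. Over a total without mitochondrial, ribosomal protein, haemoglobin and surfactant protein genes, B2m was at 82.9 and 113 CPM in AT2-like cells and at 151 and 189 in ALMF-like cells. On the same scale H2-K1 was at 418 and 422 in AT2-like cells, against 127 and 156 in ALMF-like cells.

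The number of B2m UMIs per H2-K1 UMI does not depend on the total of a class. It was 0.198 (0.183 to 0.215) in control and 0.267 (0.250 to 0.285) in HHIPCKO AT2-like cells, and 0.191 (0.0969 to 0.349) and 0.258 (0.139 to 0.453) in ciliated-like cells. In alveolar fibroblast-like cells it was 2.16 (1.84 to 2.55) and 2.46 (2.23 to 2.71), more B2m than H2-K1 UMIs. ALMF-like cells had 1.19 and 1.21 and mesothelial-like cells 0.479 and 0.491. Of the 13 classes, the AT2-like and ciliated-like had the lowest B2m count relative to H2-K1 in both libraries, and the peribronchial and alveolar fibroblast-like classes the highest.

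The immunoproteasome genes Psmb8 and Psmb9 were most frequent in B-like cells. Psmb8, which encodes the beta5i subunit, was at 286 in the control and 258 in the HHIPCKO library there and at 109 in the control and 63.6 in the HHIPCKO library in endothelial-like cells, with separate intervals in both libraries. In AT2-like cells it was at 31.3 in the control and 39.3 in the HHIPCKO library, above the 11.6 and 12.2 of ALMF-like cells and the 10.3 and 16.99 of alveolar fibroblast-like cells. Psmb9, which encodes the beta1i subunit, was at 81.8 in the control and 82.6 in the HHIPCKO library in B-like cells and at 5.73 in the control and 10.3 in the HHIPCKO library in AT2-like cells. It gave 0 UMIs in peribronchial fibroblast-like cells of both libraries, which allows up to 6.51 and 4.78 CPM. No stromal fibroblast class had more than 28 UMIs or 8.71 CPM in a library. No neighbours in the order of Psmb9 stood apart in both libraries.

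Tap1 and Tap2 encode the paired chains of the peptide transporter. Tap1 was scarce in every class, from 3.56 in red cell-like to 33.9 in endothelial-like cells of the control and from 5.19 in peribronchial fibroblast-like to 53.0 in endothelial-like cells of the HHIPCKO library, and no neighbours in its order stood apart in both libraries. Tap2 was lower in AT2-like cells, at 11.4 in the control and 11.9 in the HHIPCKO library, than in ALMF-like cells, at 27.2 in the control and 30.9 in the HHIPCKO library, with separate intervals in both libraries. In alveolar fibroblast-like cells it was at 73.9 in the control and 63.9 in the HHIPCKO library. Tapbp, which encodes tapasin, was highest in mesothelial-like cells, at 392 (360.0 to 427) in the control and 324 (293 to 359) in the HHIPCKO library. The next class was endothelial-like, at 117 in the control and 138 in the HHIPCKO library, and AT2-like cells were at 39.6 in the control and 37.3 in the HHIPCKO library. Mesothelial-like cells were thus first in both libraries for Tapbp, while their Tap1 and Tap2 were at 22.4 in the control and 13.6 in the HHIPCKO library and at 49.1 in the control and 40.7 in the HHIPCKO library.

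Nlrc5 gave 6 UMIs over all control cells and 9 over all HHIPCKO cells. In the 13 classes the B-like cells held 2 and 2, HHIPCKO AT2-like cells 2, and the ALMF-like, DMF-like and alveolar fibroblast-like cells 0 in both libraries. Neither its level nor a difference was detectable at this depth.

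**Figure D1:**
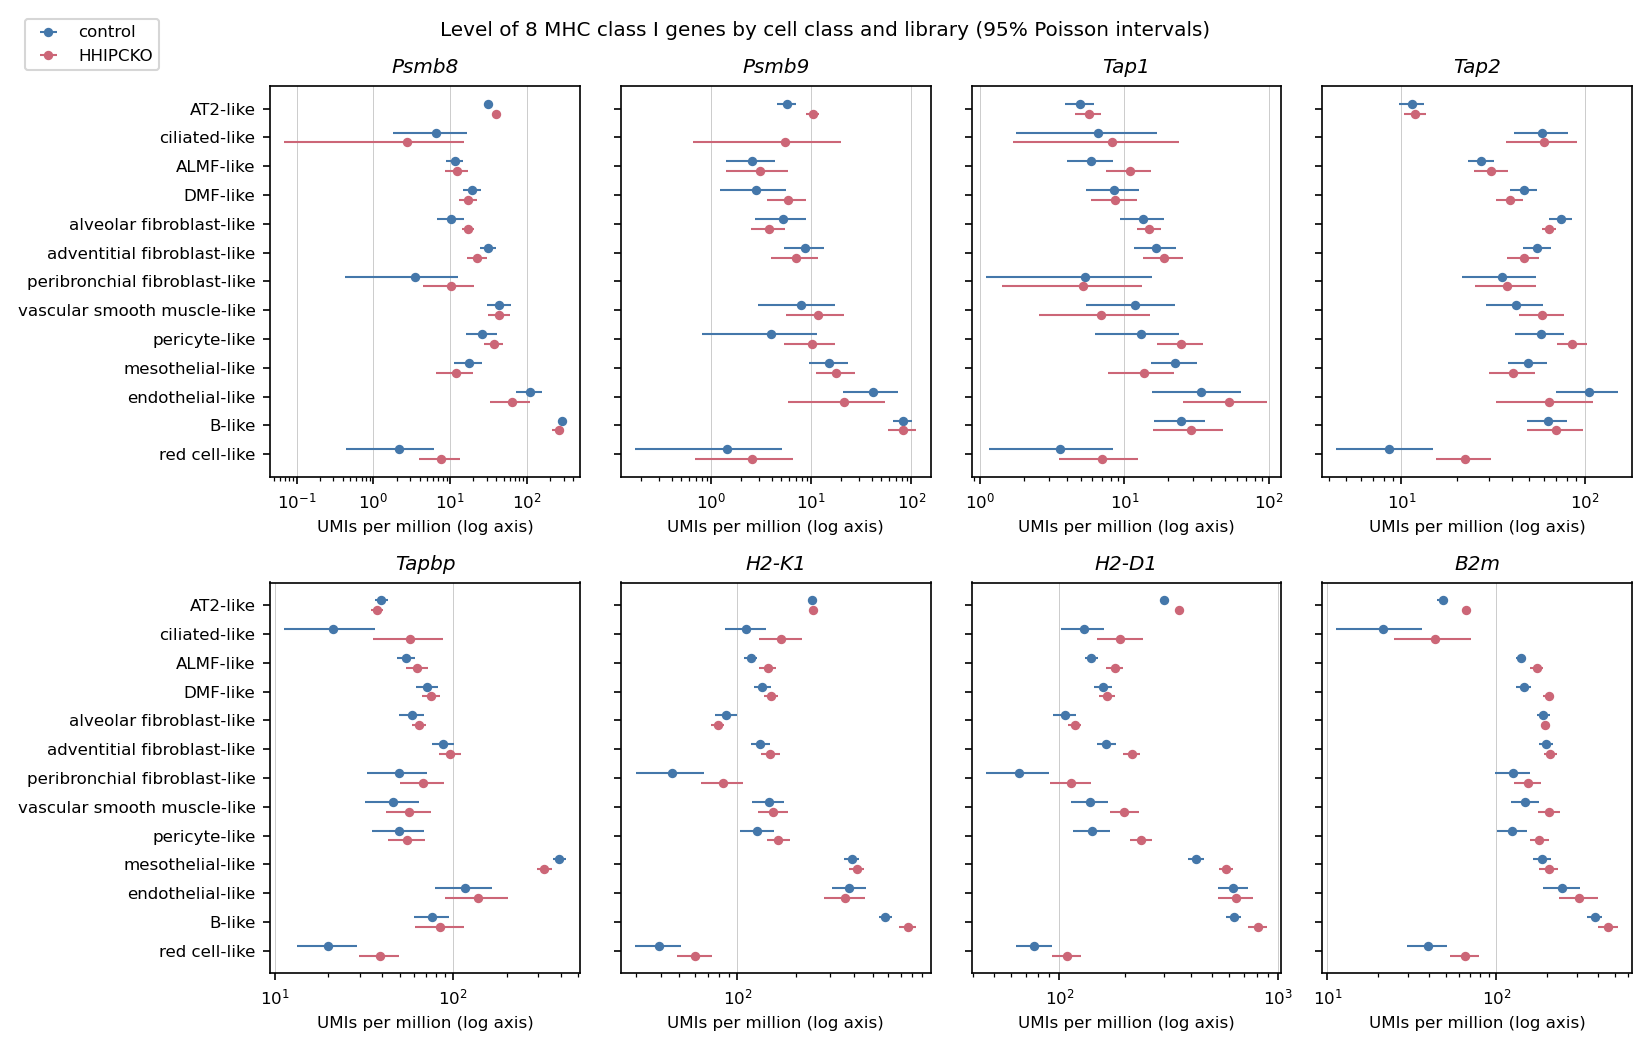
CPM (UMIs per 1000000 UMIs of the class, log axis, a separate range in each panel) of 8 MHC class I genes in 13 cell classes, with 95% Poisson intervals. Blue is the control and red the HHIPCKO library, and a gene with 0 UMIs has no point. B-like cells are highest for Psmb8, Psmb9, H2-K1, H2-D1 and B2m in both libraries, mesothelial-like cells for Tapbp, and AT2-like cells sit low for B2m and Tap2 but above the stromal fibroblast classes for H2-K1 and H2-D1.

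Over the 26 sums (13 classes in 2 libraries), the log2 levels of H2-D1 and H2-K1 had a Pearson correlation of 0.97, those of Psmb9 and H2-D1 0.88, and those of Psmb8 and Psmb9 0.83. B2m had 0.51 with H2-K1 and 0.71 with Tap1, and Tap2 had 0.29 with H2-D1. These are descriptions across classes that share the 2 libraries. Among 7501 genes with a mean of 20 or more CPM, the non-members most like H2-K1 were H2-Q4 (0.93), Arhgap17 (0.83), Psme1 (0.80), C1galt1 (0.80), Map4k2 (0.80), and those most like B2m were H2-T22 (0.91), Edem3 (0.90), Dgka (0.90), Aff3 (0.89), Sgk1 (0.89). H2-Q4 and H2-T22 encode other class I chains and Psme1 a subunit of the proteasome activator PA28.

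Summed over B2m, H2-K1 and H2-D1, the median AT2-like cell had 5.24 UMIs per 10000 of its UMIs in the control and 6.02 in the HHIPCKO library, with a 90th percentile of 11.2 and 11.8. The medians were 3.31 in the control and 3.96 in the HHIPCKO library for ALMF-like, 3.64 in the control and 4.35 in the HHIPCKO library for DMF-like and 2.98 in the control and 3.06 in the HHIPCKO library for alveolar fibroblast-like cells. B-like cells had 15.8 in the control and 23.2 in the HHIPCKO library, and 8.52% and 2.23% of them had no UMI of the 3 genes. In red cell-like cells the shares without one were 62.5% and 48.0%.

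**Figure D2:**
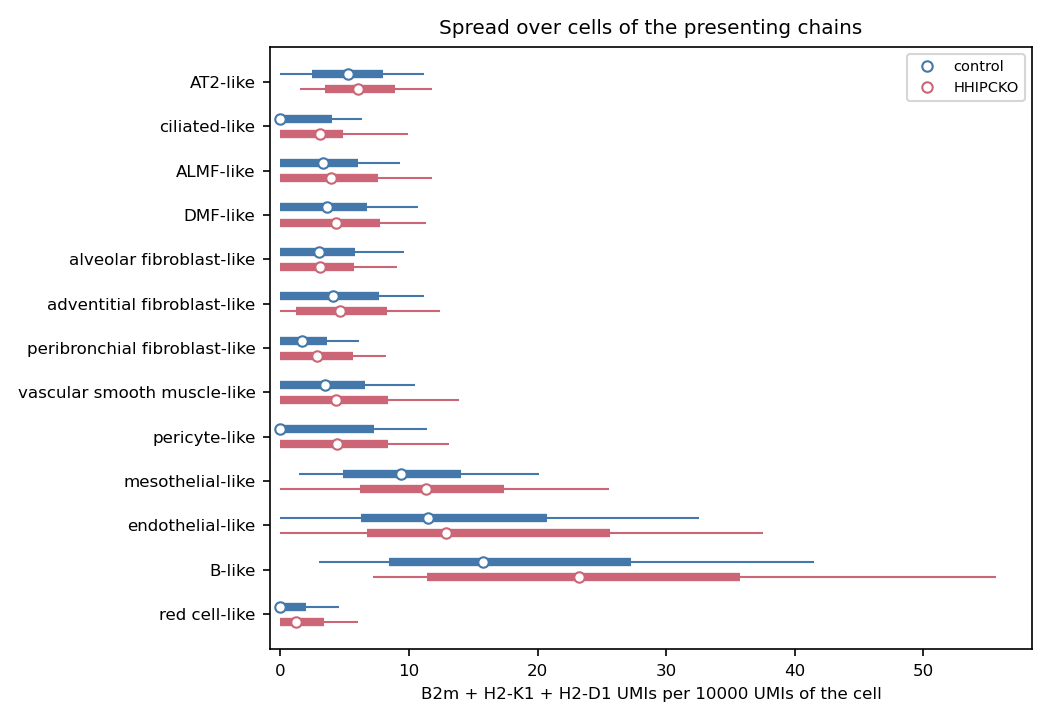
Summed UMIs of B2m, H2-K1 and H2-D1 per 10000 UMIs of a cell in 13 classes, with the control in blue and the HHIPCKO library in red. Circles are medians, thick lines run from the 25th to the 75th and thin lines from the 10th to the 90th percentile of cells, and the ranges of both libraries overlap in every class.

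Depth sets the share of cells with a UMI, so cells were also thinned to 2000 UMIs, which left out 434 control and 236 HHIPCKO AT2-like cells. H2-D1 was then seen in 44.2% of control and 48.2% of HHIPCKO cells of the AT2-like class (67.5% and 78.7% without thinning), B2m in 9.07% of control and 11.97% of HHIPCKO cells (18.9% and 29.3%) and Psmb9 in 0.935% of control and 1.67% of HHIPCKO cells (2.59% and 5.64%). In thinned red cell-like cells the shares were 11.97% and 18.7% for H2-D1, 5.13% and 7.39% for B2m, and 0% and 0.870% for Psmb9. Mitochondrial, ribosomal protein, haemoglobin and surfactant protein genes took 64.6% and 54.9% of red cell-like UMIs, against 42.1% and 41.4% in AT2-like cells. Over a total without them, B2m was at 111 and 144 CPM in red cell-like and 82.9 and 113 in AT2-like cells. Sftpc took 3.17% of the UMIs of control and 4.41% of those of HHIPCKO red cell-like cells, and Hhip was there at 123 and 41.9 CPM. Tap1 was seen in 1.11% and 1.02% of thinned AT2-like cells and in 0.855% and 0.435% of red cell-like cells. The part of free RNA in the shares of either class was not tested.

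The comparison of HHIPCKO with control asks whether the class I genes differ between the lungs of the 2 mice in each class. A gene counted as measured with 50 or more UMIs over both libraries in a class, and as higher or lower when its log2 ratio of HHIPCKO over control passed 0.5 or -0.5. Of 117 gene and class pairs 75 were measured, 64 had a ratio above 0, 15 were higher and 0 lower, where over all measured genes and classes 52.8% were above 0, 12.7% higher and 8.89% lower. Red cell-like cells gave 3 of the 15 and all their 4 measured members lay above 0. Without them 60 of 71 pairs were above 0, 12 higher and 0 lower, beside 51.0% of all genes above 0, 10.5% higher and 9.15% lower. The median ratio of the measured members was above 0 in each of the 13 classes, a sign that changed under 1 other setting in alveolar fibroblast-like and under 3 each in mesothelial-like and endothelial-like cells. In all of them but the red cell-like cells, where the median of all measured genes was itself 0.53, that of all measured genes lay between -0.056 and 0.055. These 13 values come from the same 2 mice and are not independent of each other.

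In AT2-like cells, the surfactant-producing progenitors of the alveolar epithelium, 8 members were measured, and their median log2 ratio was 0.21 beside -0.0069 over all 11072 measured genes. 1 of the 8 was higher, where 7.03% of all measured genes were, and 0 were lower, where 6.88% were. Psmb9 was the one that passed: it was at 5.73 in the control and 10.3 CPM in the HHIPCKO library (87 and 176 UMIs), a log2 ratio of 0.85 with an interval of 0.47 to 1.24, and ranked 236 of 11072 genes from the highest. Psmb8 was at 31.3 and 39.3, a ratio of 0.33 (0.15 to 0.50). Tap1, which starts 225 bases from Psmb9, was at 4.94 and 5.64, a ratio of 0.19 (-0.26 to 0.65). The intervals of Psmb9 and Tap1 overlap.

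Of the presenting chains in AT2-like cells, B2m was at 48.0 and 66.0 CPM, a ratio of 0.46 (0.32 to 0.60), and H2-D1 at 299.9 and 353, a ratio of 0.24 (0.18 to 0.29). H2-K1 was at 242 and 247, a ratio of 0.033 (-0.031 to 0.10). The intervals of the 3 do not overlap. Tap2, at 11.4 and 11.9, had a ratio of 0.067 (-0.23 to 0.37), and Tapbp, at 39.6 and 37.3, one of -0.087 (-0.25 to 0.077). The intervals of H2-K1, H2-D1, Tap2, Tapbp and Psmb8 lie between -0.5 and 0.5.

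The AT2-like class is made of 3 clusters that the libraries fill unequally. The first held 2377 control and 654 HHIPCKO cells and the second 594 and 2156, and the smallest, of shallow cells, 352 and 184. Psmb9 was at 6.37 and 11.4 CPM in the first cluster (log2 ratio 0.84, 0.23 to 1.43) and at 4.22 and 10.2 in the second (1.28, 0.48 to 2.19). B2m had ratios of 0.44 and 0.39, H2-D1 of 0.29 and 0.16, and H2-K1 of -0.028 and 0.034. The differences of Psmb9, B2m and H2-D1 in the whole class were also present within each of its 2 large clusters. Some clusters with AT2 as their best marker match stayed unnamed and are not in the class. Psmb9 was at 5.60 and 7.10 CPM in that of 403 control and 435 HHIPCKO cells. It was at 8.54 and 6.02 in that of 169 and 398 cells, and at 15.9 and 6.53 in that of 55 and 106. These Psmb9 values rest on no more than 24 UMIs in a library. B2m had ratios of 0.40, 0.12 and 0.42 there and H2-D1 of 0.15, 0.26 and 0.24.

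The rest of the pathway was read from 7 lists of genes, of 10 partners of peptide loading and trimming, 14 constitutive proteasome subunits, 11 other class I chains, 9 MHC class II genes, 13 regulators of class I transcription, 30 interferon-stimulated genes and 13 genes of interferons, their receptors and kinases. In AT2-like cells no list but the interferon-stimulated genes had a member past 0.5, where 7.03% of all measured genes were higher and 6.88% lower, and log2 ratios are given in parentheses. None of 10 measured loading and trimming partners passed 0.5 in either direction, and their median log2 ratio was -0.077. At the top stood Tapbpl (0.026), Canx (0.0031) and Erap1 (0.00077), and at the bottom Calr (-0.40), Sec61b (-0.26) and Pdia3 (-0.16). Most members of this list fold or hold the empty heavy chain, trim its peptides or feed the proteasome. Psmb10, also in it, encodes a further immunoproteasome subunit. None of 14 measured constitutive proteasome subunits passed 0.5 in either direction, and their median log2 ratio was -0.034. Their ratios ran from those of Psma5 (0.087), Psmb4 (0.065) and Psmb1 (0.059) down to those of Psma2 (-0.30), Psma7 (-0.22) and Psmb5 (-0.21). These subunits are part of the standard 20S core, in which Psmb8 and Psmb9 replace Psmb5 and Psmb6. None of 5 measured other class I chains passed 0.5 in either direction, and their median log2 ratio was 0.23, from the ratios of H2-T23 (0.42), H2-Q4 (0.26), Fcgrt (0.23), H2-M3 (0.029) and H2-T22 (-0.018). These chains are the less variable relatives of H2-K1 and H2-D1. None of 7 measured MHC class II genes passed 0.5 in either direction, and their median log2 ratio was 0.044. H2-Eb1 (0.29), H2-Aa (0.25) and H2-DMa (0.24) had the highest ratios and Ciita (-0.34), Cd74 (-0.029) and H2-Ab1 (0.0052) the lowest. Class II molecules present outside proteins and need Ciita for their transcription. None of 13 measured regulators of class I transcription passed 0.5 in either direction, and their median log2 ratio was -0.015. At the top stood Rfx5 (0.26), Irf1 (0.21) and Nfkb1 (0.11), and toward the bottom Nfyc (-0.46) and Nfya (-0.37). These factors bind the kB, X, Y and interferon-response motifs of class I promoters or act upstream of them. Among 15 measured interferon-stimulated genes, 3 were higher and 2 lower, around a median log2 ratio of -0.015. Their ratios ran from those of Xaf1 (0.94), Ifih1 (0.53) and Isg15 (0.51) down to those of Ifi27l2a (-0.75), Igtp (-0.58) and Irgm1 (-0.37). None of 9 measured genes of interferons, their receptors and kinases passed 0.5 in either direction, and their median log2 ratio was 0.25, with Ifngr2 (0.40), Ifngr1 (0.35) and Tyk2 (0.32) highest and Jak2 (-0.18), Ifnlr1 (-0.085) and Il10rb (0.22) lowest. Calr, Pdia3 and Sec61b encode a loading chaperone, its partner and a subunit of the translocation channel, and Xaf1, Ifih1 and Isg15 are induced by interferon. Leukocyte markers (8 genes) summed to 3.09 and 2.88 CPM in AT2-like cells, against 2108 and 1894 in B-like cells, and 1 of the 8 was at 0 in each library.

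In ALMF-like cells, 7 members were measured, and their median log2 ratio was 0.29 beside 0.0033 over all measured genes. 1 was higher (10.2% of measured genes) and 0 were lower (8.7%). The 7 measured ratios were all above 0. Tap1 was at 5.87 in the control and 10.9 in the HHIPCKO library, from 32 UMIs in each, and its ratio of 0.89 had an interval of 0.14 to 1.64. B2m was at 139.8 and 173 (0.31, 0.15 to 0.47), H2-K1 at 117 and 143 (0.29, 0.11 to 0.47) and H2-D1 at 140.0 and 179 (0.36, 0.19 to 0.52). The intervals of the 3 presenting chains lay above 0. Tapbp, Tap2 and Psmb8 had ratios of 0.22, 0.19 and 0.082, with intervals that reach below 0. The class holds 1 cluster mainly of control cells (1138 control, 73 HHIPCKO), 1 mainly of HHIPCKO cells (67 and 910) and 1 led by immediate early genes (478 and 71). B2m had ratios of 0.39, 0.61 and 0.055 within them, H2-K1 of 0.69, 1.06 and 0.16, and H2-D1 of 0.36, -0.41 and 0.64. H2-D1 in the second cluster thus went the other way, with an interval of -1.003 to 0.25 from 24 control UMIs. There B2m (-0.21 to 1.58) and H2-K1 (-0.0006 to 2.38) rested on 12 and 7 control UMIs. Within the clusters, only H2-K1 in the first (0.13 to 1.20) and H2-D1 in the third (0.23 to 1.03) had intervals above 0.

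Of the 7 lists, the interferon-stimulated genes had the most members past 0.5 in ALMF-like cells, where 10.2% of all measured genes were higher and 8.7% lower. Among 10 measured loading and trimming partners, 0 were higher and 1 lower, around a median log2 ratio of -0.028. Erap1 (0.34), Tapbpl (0.19) and Canx (0.11) had the highest ratios and Psmb10 (-0.51), Psme2 (-0.29) and Sec61b (-0.17) the lowest. None of 14 measured constitutive proteasome subunits passed 0.5 in either direction, and their median log2 ratio was -0.079. At the top stood Psmb4 (0.16), Psma6 (0.16) and Psmb7 (0.13), and at the bottom Psma7 (-0.36), Psmb5 (-0.30) and Psma2 (-0.29). Among 6 measured other class I chains, 0 were higher and 1 lower, around a median log2 ratio of 0.19. The ratios were those of Mr1 (0.42), H2-T23 (0.40), H2-T22 (0.21), Fcgrt (0.16), H2-Q4 (-0.10) and Cd1d1 (-1.31). None of 2 measured MHC class II genes passed 0.5 in either direction, and their median log2 ratio was 0.13, from the ratios of H2-Aa (0.37) and Cd74 (-0.12). Among 13 measured regulators of class I transcription, 0 were higher and 2 lower, around a median log2 ratio of -0.19. Nfyc (0.18) and Nfkb1 (0.14) were among the higher ratios and Rfxank (-0.67), Relb (-0.53) and Nfya (-0.41) were the lowest. Among 15 measured interferon-stimulated genes, 6 were higher and 1 lower, around a median log2 ratio of 0.10. At the top stood Xaf1 (1.29), Irf9 (1.05) and Ifit2 (1.05), and at the bottom Socs1 (-1.85), Iigp1 (-0.20) and Ifi35 (-0.18). Among 8 measured genes of interferons, their receptors and kinases, 1 was higher and 0 lower, around a median log2 ratio of 0.11. Their ratios ran from those of Ifnar1 (0.52), Ifngr1 (0.49) and Jak2 (0.20) down to those of Tyk2 (-0.47), Ifngr2 (-0.33) and Ifnar2 (-0.19). Socs1 and Cd1d1 encode an inhibitor of cytokine signaling and a lipid-presenting class I-like chain, and Ifngr1 and Ifnar1 interferon receptor chains. Leukocyte markers summed to 4.59 and 9.18 CPM, with 3 of 8 at 0 in each library.

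In DMF-like cells, 7 members were measured and the median log2 ratio was 0.064 beside 0.0090 over all measured genes. 0 were higher (9.9%) and 0 lower (8.95%). B2m was at 145 in the control and 204 in the HHIPCKO library, a ratio of 0.49 (0.31 to 0.67), the only measured member here whose interval lay above 0. H2-K1 was at 134 and 149 (0.15, -0.042 to 0.34) and H2-D1 at 158 and 166 (0.064, -0.11 to 0.24). Tapbp, Tap1, Psmb8 and Tap2 had ratios of 0.077, 0.027, -0.17 and -0.25, each within counting error of 0. The class is 1 cluster of 1098 control and 14 HHIPCKO cells, led by Hhip itself, and 1 of 16 and 1196, so within-cluster ratios could not be had and cluster and library cannot be told apart. An unnamed cluster led by immediate early genes, with 12 control and 563 HHIPCKO cells, had B2m at 185, H2-K1 at 143 and H2-D1 at 159 in the HHIPCKO library, where HHIPCKO DMF-like cells had 204, 149 and 166.

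In DMF-like cells the other class I chains and the interferon-stimulated genes had the most members past 0.5, beside 9.9% of all measured genes higher and 8.95% lower. None of 10 measured loading and trimming partners passed 0.5 in either direction, and their median log2 ratio was -0.13, with Erap1 (0.44), Canx (0.11) and Psme1 (0.053) highest and Psmb10 (-0.36), Calr (-0.33) and Hspa5 (-0.29) lowest. None of 14 measured constitutive proteasome subunits passed 0.5 in either direction, and their median log2 ratio was -0.025. Psmb7 (0.32), Psmb4 (0.24) and Psma5 (0.19) had the highest ratios and Psma2 (-0.32), Psma7 (-0.13) and Psmb3 (-0.13) the lowest. Among 6 measured other class I chains, 2 were higher and 1 lower, around a median log2 ratio of 0.14, from the ratios of Mr1 (0.83), H2-Q4 (0.72), H2-T23 (0.21), H2-T22 (0.061), Fcgrt (-0.16) and Cd1d1 (-0.92). Among 2 measured MHC class II genes, 0 were higher and 1 lower, around a median log2 ratio of -0.47. The ratios were those of H2-Aa (-0.17) and Cd74 (-0.77). Among 12 measured regulators of class I transcription, 0 were higher and 1 lower, around a median log2 ratio of -0.12, with Rela (0.30), Nfyb (0.070) and Nfkb1 (-0.013) highest and Rfxap (-0.56), Irf1 (-0.50) and Nfya (-0.41) lowest. Among 15 measured interferon-stimulated genes, 2 were higher and 1 lower, around a median log2 ratio of 0.044. Irf9 (0.88), Ifit2 (0.69) and Gbp7 (0.36) had the highest ratios and Socs1 (-1.43), Ifitm3 (-0.41) and Gbp2 (-0.38) the lowest. None of 8 measured genes of interferons, their receptors and kinases passed 0.5 in either direction, and their median log2 ratio was -0.14. At the top stood Ifnar1 (0.25), Jak2 (0.019) and Jak1 (0.0071), and at the bottom Ifnar2 (-0.38), Ifngr1 (-0.28) and Tyk2 (-0.28). Mr1 encodes a class I-like chain that presents vitamin metabolites, and Cd74 the class II invariant chain. Sftpc, an AT2 transcript, took 0.254% of the UMIs of control and 0.135% of HHIPCKO DMF-like cells, and the part of free AT2 RNA in the Cd74 ratio was not tested. Leukocyte markers summed to 9.52 and 5.84 CPM, with 2 and 3 of 8 at 0.

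In alveolar fibroblast-like cells, 7 members were measured and the median log2 ratio was 0.13 beside 0.0021 over all measured genes. 1 was higher (10.0%) and 0 were lower (9.93%). Psmb8 was at 10.3 and 16.99 CPM (26 and 126 UMIs), a ratio of 0.72 (0.10 to 1.39). B2m was at 189 and 194 (0.036, -0.11 to 0.19), H2-K1 at 87.5 and 79.0 (-0.15, -0.37 to 0.083) and H2-D1 at 106 and 118 (0.15, -0.052 to 0.35). The intervals of these 3 chains include 0 and lie between -0.5 and 0.5. Tap1, Tap2 and Tapbp had ratios of 0.13, -0.21 and 0.14. In the largest of its 4 clusters (384 control and 843 HHIPCKO cells) the ratio of Psmb8 was 0.57 (-0.25 to 1.48). The median of the members became -0.042 when each cell's share was averaged in place of summing UMIs.

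In alveolar fibroblast-like cells the interferon-stimulated genes again had the most members past 0.5, in equal numbers up and down, beside 10.0% of all measured genes higher and 9.93% lower. Among 10 measured loading and trimming partners, 0 were higher and 1 lower, around a median log2 ratio of -0.15. Their ratios ran from those of Erap1 (0.30), Psme1 (0.20) and Canx (0.030) down to those of Calr (-0.56), Hspa5 (-0.40) and Pdia3 (-0.39). None of 14 measured constitutive proteasome subunits passed 0.5 in either direction, and their median log2 ratio was -0.037, with Psmb7 (0.40), Psma6 (0.20) and Psma5 (0.12) highest and Psma4 (-0.45), Psmb5 (-0.24) and Psma2 (-0.23) lowest. Among 5 measured other class I chains, 1 was higher and 0 lower, around a median log2 ratio of -0.030. The ratios were those of Mr1 (0.87), H2-T23 (0.24), H2-T22 (-0.030), Cd1d1 (-0.061) and Fcgrt (-0.12). Among 2 measured MHC class II genes, 0 were higher and 1 lower, around a median log2 ratio of -0.48, from the ratios of Cd74 (-0.34) and H2-Aa (-0.61). Among 13 measured regulators of class I transcription, 0 were higher and 1 lower, around a median log2 ratio of -0.024. Their ratios ran from those of Relb (0.42), Rfx5 (0.41) and Irf2 (0.34) down to those of Rfxank (-0.63), Nfya (-0.23) and Nfkb1 (-0.17). Among 22 measured interferon-stimulated genes, 3 were higher and 3 lower, around a median log2 ratio of -0.026, with Ifi27l2a (0.84), Gbp7 (0.63) and Isg15 (0.51) highest and Socs1 (-1.94), Ifit3 (-0.96) and Irf7 (-0.60) lowest. Among 8 measured genes of interferons, their receptors and kinases, 1 was higher and 0 lower, around a median log2 ratio of 0.24. Ifngr1 (0.76), Jak2 (0.46) and Ifnar1 (0.28) had the highest ratios and Ifngr2 (-0.22), Ifnar2 (-0.019) and Il10rb (0.18) the lowest. Calr, Hspa5 and Pdia3 encode chaperones of the endoplasmic reticulum. Sftpc was at 1857 CPM in control and 1041 in HHIPCKO alveolar fibroblast-like cells, a log2 ratio of -0.84, and the part of free AT2 RNA in the class II ratios was not tested. Leukocyte markers summed to 7.55 and 6.20 CPM, with 1 and 2 of 8 at 0.

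Pericyte-like cells had the most members past 0.5. Of 6 measured members 4 were higher, where 11.5% of all measured genes were, and 0 were lower (6.43%), with a median log2 ratio of 0.52 beside 0.054. H2-D1 was at 141 in the control and 237 in the HHIPCKO library (0.75, 0.43 to 1.08), B2m at 124 and 179 (0.53, 0.18 to 0.89), Tap2 at 57.5 and 85.7 (0.58, 0.061 to 1.11) and Psmb8 at 26.1 and 37.1 (0.50, -0.28 to 1.34). The interval of Psmb8 includes 0, and its ratio lay between 0.097 and 0.65 over the other settings tried, past 0.5 in 7 of 12. H2-K1 was at 127 and 163 (0.36, 0.0093 to 0.73) and Tapbp at 49.7 and 54.8 (0.14, -0.44 to 0.75). Tap1 and Psmb9 were too rare to count as measured, with 10 and 32 UMIs and 3 and 13 UMIs in the control and HHIPCKO library. Leukocyte markers summed to 24.8 and 31.7 CPM, more than in other stromal classes, with 3 of 8 and Ptprc at 0 in each library. Without the 3.72% of control and 4.67% of HHIPCKO cells that held such a UMI, the median ratio was 0.32, and without the cells of the highest doublet scores it was 0.35. B2m passed 0.5 in 8 of 14 other settings, Tap2 in 11 of 13 and H2-D1 in 13 of 14.

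The other stromal and mural classes had medians of 0.13 in adventitial fibroblast-like (beside 0.00031 over all measured genes), 0.62 in peribronchial fibroblast-like (0.055), 0.38 in vascular smooth muscle-like (0.029) and 0.095 in mesothelial-like cells (0.0071). Of 7 measured members in adventitial fibroblast-like cells 0 were higher (11.7% of measured genes) and 0 lower (9.49%), and their ratios ran on both sides of 0. H2-D1 was highest, at 164 and 214 (0.38, 0.18 to 0.59), and Psmb8 lowest, at 30.9 and 22.5 (-0.46, -1.02 to 0.091), with Psmb8 between -0.72 and -0.25 in other settings and still within 0.5 of 0 in 9 of 12. Tap1 (0.18), H2-K1 (0.17), Tapbp (0.13), B2m (0.088) and Tap2 (-0.25) had intervals that include 0. Of 4 in peribronchial fibroblast-like cells 2 were higher (14.4%) and 0 lower (9.79%): H2-K1 was at 45.8 and 84.3 (0.88, 0.20 to 1.59) and H2-D1 at 65.2 and 113 (0.79, 0.22 to 1.39), while Tapbp (0.45) and B2m (0.30) had intervals that include 0. Of 6 in vascular smooth muscle-like cells 1 was higher (11.6%) and 0 lower (9.13%), namely H2-D1 at 138 and 198 (0.52, 0.16 to 0.88), which passed 0.5 in 12 of 14 other settings. Of the rest there, B2m at 148 and 205 (0.47, 0.13 to 0.83) had an interval above 0, while those of Tap2 (0.48), Tapbp (0.29), H2-K1 (0.081) and Psmb8 (0.011) include 0. Of 5 in mesothelial-like cells 0 were higher (11.4%) and 0 lower (10.3%). There H2-D1 was at 422 and 579 (0.46, 0.30 to 0.62), while Tapbp was at 392 and 324 (-0.27, -0.47 to -0.083), the only measured pair of the 75 with an interval below 0. Tap2 (-0.27), B2m (0.13) and H2-K1 (0.095) had intervals that include 0. The median of mesothelial-like cells fell below 0 in 3 settings, to -0.11 after thinning, to -0.13 with coarser clusters and to -0.089 with 20 UMIs to count as measured.

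In ciliated-like cells 3 members were measured, 2 of them higher (10.7% of measured genes) and 0 lower (7.48%). H2-K1 was at 111 and 168 (0.60, 0.081 to 1.12) and H2-D1 at 129 and 190.2 (0.56, 0.075 to 1.04), from 180 and 93 cells, and Tap2 was at 58.8 and 59.8 (0.025, -0.81 to 0.83). H2-K1 passed 0.5 in 10 of 13 other settings and fell to 0.27 with no gene held out of clustering. H2-D1 passed it in 11 of 12 and was 0.496 without the cells of the highest doublet scores. In the ciliated-like cluster of 69 control and 32 HHIPCKO cells, H2-K1 had a ratio of 0.57 (-0.24 to 1.37) and H2-D1 of 0.30 (-0.50 to 1.08). In that of 40 and 30 cells these ratios were 0.36 (-0.40 to 1.12) and 0.75 (0.049 to 1.47). In that of 71 and 31 cells H2-K1 was at 41.1 and 99.2 and H2-D1 at 90.4 and 79.4. Each of these levels rests on no more than 11 UMIs. In endothelial-like cells 0 of 4 were higher (13.3%) and 0 lower (11.9%), and each interval included 0, with ratios for B2m (0.33), Tapbp (0.24), H2-D1 (0.039) and H2-K1 (-0.075). Their median of 0.14 was -1.32 after thinning, when H2-D1 alone was left measured, -0.036 without the cells of the highest doublet scores and -0.018 with 20 UMIs to count as measured. In B-like cells 0 of 7 were higher (11%) and 0 lower (15.1%), with a median of 0.16. H2-K1 was there at 583 and 762 (0.39, 0.19 to 0.58), and H2-D1 (0.37) and B2m (0.27) also had intervals above 0. Those of Tapbp (0.16), Tap2 (0.15) and Psmb8 (-0.15) include 0, as did Psmb9 at 81.8 and 82.6 (0.015, -0.57 to 0.58). The B-like cells held Sftpc at 4.35% and 5.76% of their UMIs. In red cell-like cells 3 of 4 were higher, where 53.1% of measured genes were, and 0 lower (3.87%). Tapbp (0.96), B2m (0.73) and H2-K1 (0.62) were the 3, and H2-D1 was at 0.49. Relative to the all-gene median of 0.53, the members' median of 0.68 became 0.14 when ratios were centred on the genes measured in the class, and that of H2-D1 was -0.042.

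**Figure D3:**
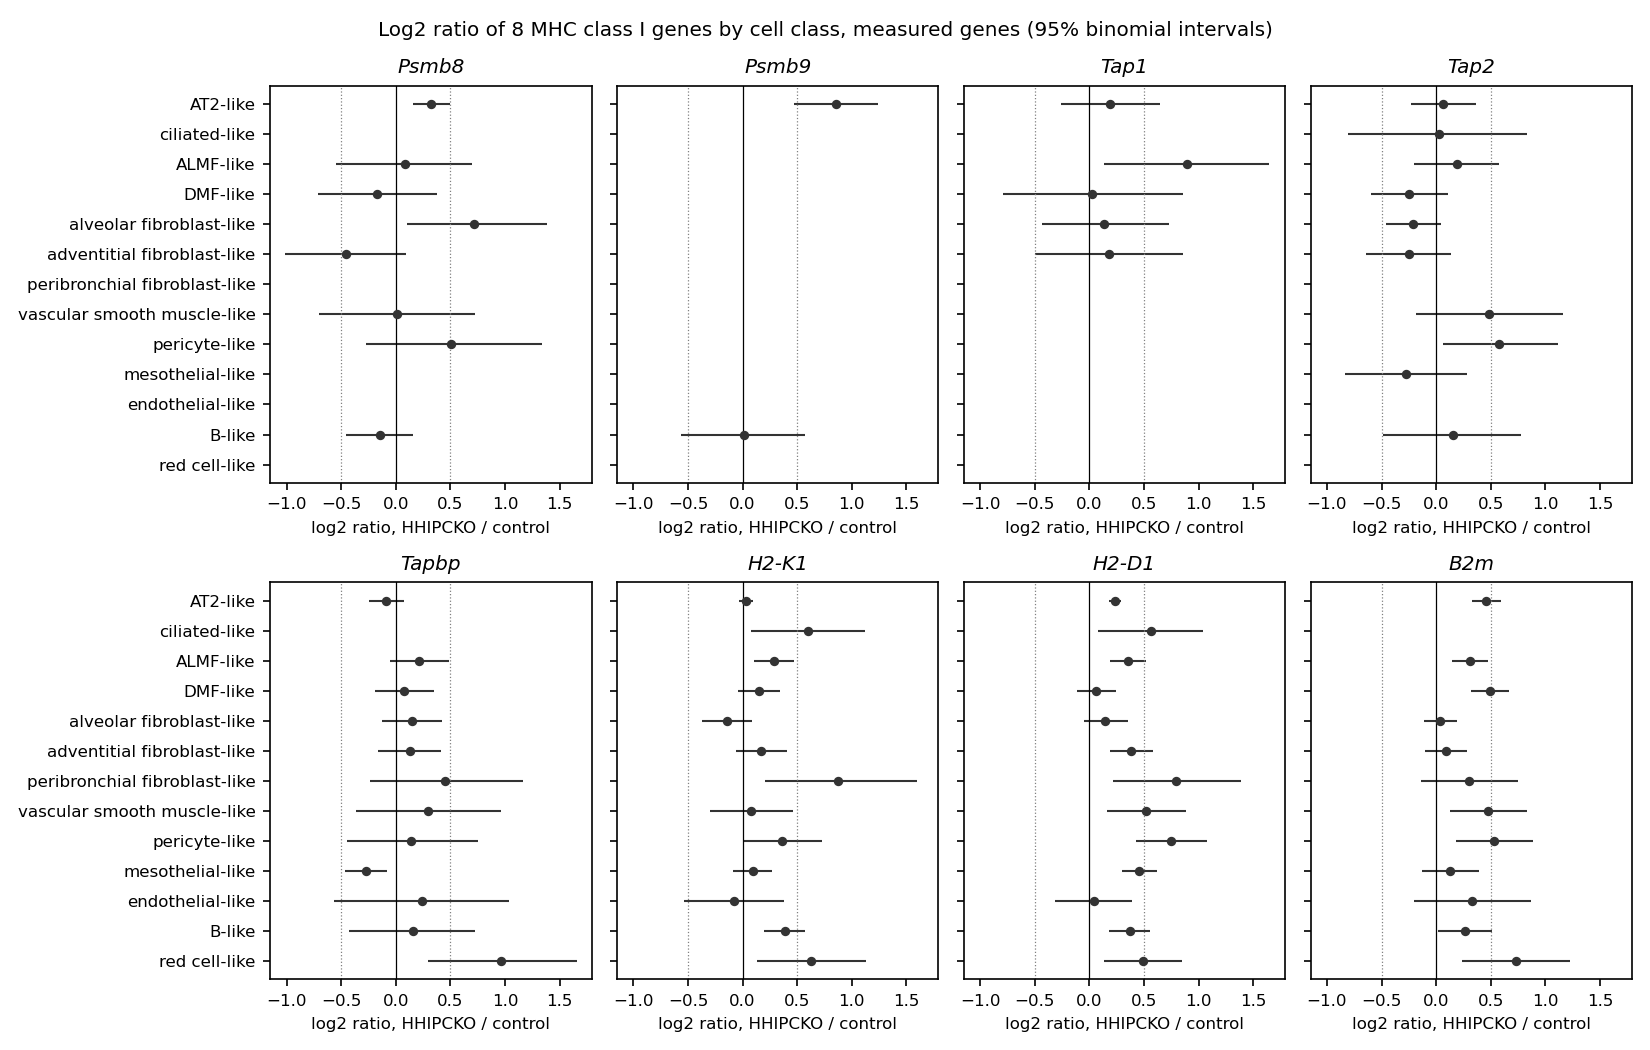
Log2 ratio of HHIPCKO over control for 8 MHC class I genes in each class where the gene was measured, with 95% binomial intervals that cover counting error only. Dotted lines mark -0.5 and 0.5. H2-D1 lies above 0 in 13 of 13 classes and B2m in 12 of 12, and 1 of 10 intervals of Tap2 lies above 0.

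Across classes, H2-D1 had a ratio above 0 in 13 of 13 classes, with the interval above 0 in 10, and ratios from 0.039 to 0.79. The lowest, in endothelial-like cells, became -1.32 after thinning and -0.036 without the cells of the highest doublet scores, and the red cell-like ratio became -0.042 after centring. Without red cell-like cells it was above 0 in 12 of 12 classes with 9 intervals above 0. Of 1189 genes measured in those 12 classes, 6.64% had a ratio above 0 in all of them and 7.49% had at least as many intervals above 0. Over all members 29 of 75 intervals lay above 0, or 25 of 71 without red cell-like cells, beside 16.2% and 14.6% over all genes. Most of the 29 were those of B2m, H2-K1 and H2-D1, the members with the most UMIs. The genes behind the all-gene shares were not matched to the members for UMI count, on which the width of an interval depends. B2m had a ratio above 0 in 12 of 12 classes, with the interval above 0 in 7, and H2-K1 in 11 of 13, with the interval above 0 in 6. Tap1 had an interval above 0 in 1 of 5 classes, Tap2 in 1 of 10, Tapbp in 1 of 12, Psmb8 in 2 of 8 and Psmb9 in 1 of 2. The processing genes also had fewer UMIs, so their intervals are wider.

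**Figure D4:**
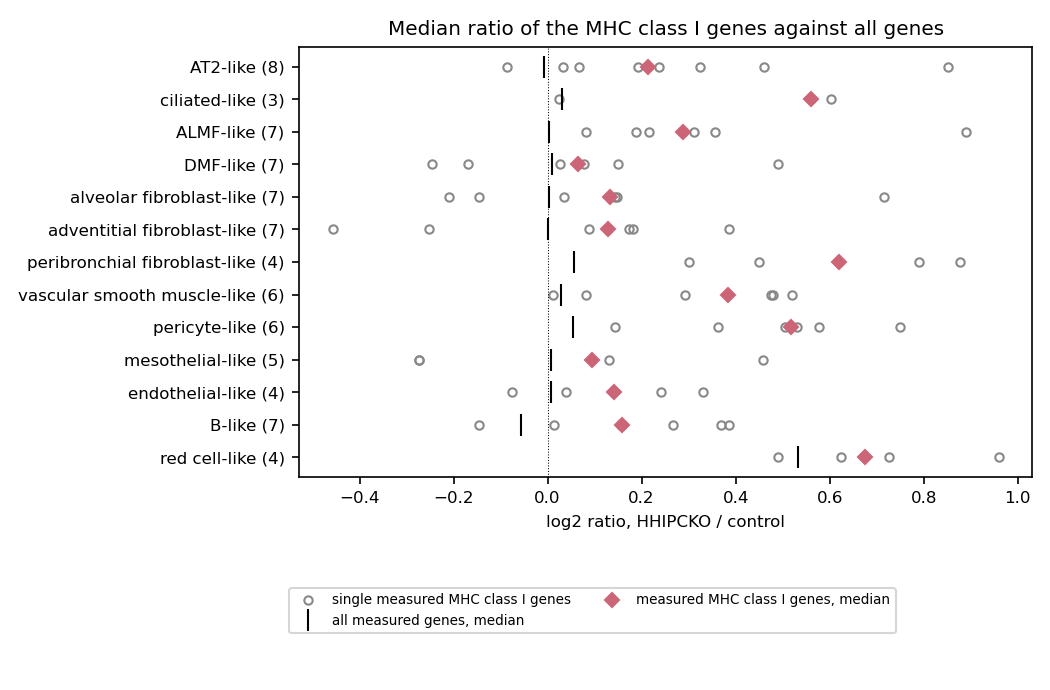
Median log2 ratio of HHIPCKO over control of the measured MHC class I genes (diamonds, their number in parentheses) in each class, with the single measured members (open circles) and the median of all genes measured there (tick). The diamond lies right of the tick in each of the 13 classes, and single members lie on both sides of 0 in AT2-like, DMF-like, alveolar and adventitial fibroblast-like, mesothelial-like, endothelial-like and B-like cells.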

How the data were processed

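Gene expression was measured in single cells of 2 mouse lung libraries, control and HHIPCKO, each from 1 mouse. The authors deposited raw UMI counts per gene and cell barcode for each library, with no normalization, as filtered Cell Ranger output on mm10. The file headers name version 6.1.0 and the submitters' processing notes 3.1.0. The methods describe a 5′ kit and the labels' protocol a 3′ kit, so which end of a transcript was counted is unsettled here.

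The filter on cells (200 to 6000 genes, no more than 10% of UMIs mitochondrial) left 10917 control and 12115 HHIPCKO cells. Counts were log-normalized in scanpy 1.11.5, and both libraries were clustered together (2000 variable genes, 30 components, 20 neighbours, Leiden resolution 1), with 117 genes, the members and listed genes among them, held out. Clusters were named from marker lists, with naming thresholds set after the clusters were seen, and 13 classes with 50 or more cells per library were used. A name needed a marker score of 0.5, and the vascular smooth muscle-like cluster had 0.53, with 4 of its markers detected. An unnamed cluster scored 0.67 on the same list but had more peribronchial markers among its leading genes. The name of that class is thus weak. No doublet caller was used for the values reported, and 1 alternative left out cells by doublet score.

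UMIs were summed per class and library and divided by the class total (CPM). Ratios are HHIPCKO over control on the log2 scale. With 1 library per group there is no test, no standard error and no p-value. Exact 95% Poisson and binomial intervals cover counting error only, and do not cover the spread between animals. The interval code was tested on simulated data. The 9 genes and the other lists were chosen with earlier results of these data known. Every measured member is named in every class. Of the other lists the 3 largest and 3 smallest ratios are named in 4 classes, as are the 5 genes most like H2-K1 and B2m. The values of 1 listed gene are not reported here. H2-T10 and Mx1 of the lists had no row under these symbols in the tables used here. Gene positions come from GENCODE and promoter sequences from RefSeq (GRCm38.p6).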

Additional observations from a re-analysis of the deposited data

How the results depend on the processing

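The median log2 ratio of the 9 genes and each single ratio were recomputed under 14 other settings (other scalings, cell filters, clusterings, thinning, doublet and leukocyte filters, and other UMI thresholds) and 4 chosen after seeing the data (stress-led, shallow or deep clusters left out or added). The median ranged from 0.18 to 0.27 in AT2-like, 0.22 to 0.37 in ALMF-like, 0.0077 to 0.13 in DMF-like and -0.042 to 0.20 in alveolar fibroblast-like cells. In pericyte-like cells it ranged from 0.30 to 0.55, in peribronchial fibroblast-like cells from 0.35 to 0.84, in mesothelial-like cells from -0.13 to 0.19, in endothelial-like cells from -1.32 to 0.21 and in red cell-like cells from 0.14 to 0.98. Of the 15 ratios past 0.5, 15 kept their sign and 5 stayed past 0.5 in every setting that gave a value: Psmb9 in AT2-like (0.78 to 0.88), Tap1 in ALMF-like (0.66 to 1.02, from 9 settings only), Psmb8 in alveolar fibroblast-like (0.51 to 1.10), and H2-K1 and H2-D1 in peribronchial fibroblast-like cells (0.82 to 1.12 and 0.70 to 0.92). The cause of the other changes was not tested. Some settings gave no value, because too few UMIs or cells were left: Tap1 in ALMF-like cells in 6 (thinning, clustering at resolution 0.5 or 2, each library alone, 200 UMIs to count as measured, or no stress-led cluster), where no other member there passed 0.5, peribronchial fibroblast-like cells when each library was clustered alone, ciliated-like and peribronchial fibroblast-like cells at 200 UMIs to count as measured, and B-like cells without leukocyte UMIs. No paired analysis was possible because each group has 1 sample and the results come from no test. For the same reason no replicate could be left out. Depth limits Nlrc5, with 6 and 9 UMIs in all, and Psmb9 outside AT2-like and B-like cells.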
